A study of Mus musculus with 4 samples.

Results

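Gucy1a1, Gucy1b1, Prkg1, Pde5a, Pde7b and Rgs5 are 6 of the 32285 genes in the deposited count tables, and they encode proteins of cyclic GMP signalling, cyclic nucleotide breakdown and G protein control. They were taken by symbol, and all 6 were found in each table. Their levels are described along Myog, Pax7 and the summed level of Mki67 and Top2a, together with the pairing of Gucy1a1 and Gucy1b1 in the same cells and the spread of Prkg1 among cells with a high Myog level. The 6 genes were chosen by their measured levels in these cells, along Myog, Pax7, Mki67 and Top2a and beside one another in earlier results, so these values are descriptions and carry no test.

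The cells were satellite cells (MuSCs), the stem cells of skeletal muscle, isolated from MyoD-KI mice, in which tdTomato fluorescence reports MyoD. They were grown for 5 days in a medium of DMEM and Ham's F12 with fetal bovine serum and Ultraser G, and sorted MyoD-tdTomato high cells were sequenced with the 10x 3′ method, which counts RNA molecules by unique molecular identifiers (UMIs). The labels give 4 replicates of this 1 group, with no other genotype, treatment or time, and they do not give the age or number of the mice. The sort kept cells with a high reporter signal, so cells with a low signal are not analysed here.

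The 4 deposited files were made from 1 set of cells. Any 2 files shared 5946 to 5965 cell barcodes, at least 99.9% of the smaller list, and the profile of a barcode correlated with its own profile in another file at a median r of 0.793 to 0.799, against 0.662 to 0.666 with another cell's profile. There is therefore n = 1 set of cells and no test over samples, and nothing in the labels ties the replicates to separate animals or cultures. Whether the files are separate libraries or repeat runs of 1 library is not given in the sources used here. In the second case the same molecules can be counted in several files, so likeness between files says nothing beyond the reading of the same cells. The 95% intervals given below (exact Poisson, exact Clopper-Pearson or the conditional binomial for ratios) cover counting error only. Of the 5944 barcodes present in all 4 files, the 5481 that averaged 1000 genes or more and had less than 10% of their UMIs on mitochondrial genes were kept. Their median depth was 11049 UMIs per file. Levels are counts per 1000000 UMIs (CPM) in the summed cells of a group, taken in each file and averaged over the 4 files, and log2 ratios were taken after adding 1 CPM to each level. A ratio was called when it passed 2-fold in the same direction in every file and the 2 groups together averaged at least 50 UMIs per file.

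The kept cells carried the muscle identity that the labels state. Myod1 averaged 507 CPM, Pax7 57.1 CPM and Myog 1803 CPM. Of the markers of other cells, 0 of 5 endothelial and 0 of 4 immune genes passed 1 CPM, with summed levels of 1.94 and 1.15 CPM, and 1 of 3 glial genes did (sum 1.47 CPM). The 7 fibroblast markers summed to 141 CPM, of which Col3a1 made up 110 CPM and Ly6a 29.6 CPM, and the other 5, Pdgfra and Dcn among them, were below 1 CPM each. That sum was 219 CPM (217 to 221 over the files) in cells with Myog under 150 CPM and 66.1 CPM (64.4 to 67.6) in cells with at least 1500 CPM, and its part in the results along Myog was not tested. Because Gucy1a1, Gucy1b1, Pde5a and Rgs5 are also known from pericytes and vascular smooth muscle, 16 markers of those cells were followed. Their sum was 1537 CPM (1529 to 1546 over the files), of which Acta2, which immature myocytes also express, made up 1425 CPM. In all, 8 of the 16 passed 1 CPM: besides Acta2 these were Notch3 at 50.3 CPM, Tagln at 25.7 CPM, Cspg4 at 12.3 CPM, Abcc9 at 11.7 CPM, Pdgfrb at 4.59 CPM, Lmod1 at 2.77 CPM and Mcam at 2.48 CPM. Higd1b, a defining pericyte gene, was at 0 in the kept cells, Kcnj8 was at 0.0303 CPM, and the smooth muscle genes Myh11 and Cnn1 were at 0.30 and 0.10 CPM.

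Soluble guanylyl cyclase is the receptor for nitric oxide. It is a heterodimer of an alpha subunit, encoded by Gucy1a1 or Gucy1a2, and a beta subunit, encoded by Gucy1b1, and neither subunit makes cyclic GMP alone. Cyclic GMP activates the kinase encoded by Prkg1 and is broken down by the phosphodiesterase encoded by Pde5a, the target of sildenafil. Pde7b encodes a phosphodiesterase that acts on cyclic AMP, and Rgs5 encodes a GTPase activator that shortens signalling from G protein-coupled receptors. In skeletal muscle, nitric oxide comes largely from the neuronal synthase Nos1, and nitric oxide is known there for the control of blood flow and for a role in satellite cell activation.

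In GENCODE M21 (GRCm38), the cyclase subunit genes are neighbours on the same strand. Gucy1b1 (ENSMUSG00000028005) lies at chr3:82032006-82074689 and Gucy1a1 (ENSMUSG00000033910) at chr3:82092427-82145789, both on the minus strand, with 17.7 kb and 0 annotated genes between them. Pde5a (ENSMUSG00000053965) lies on the plus strand of the same chromosome at chr3:122728947-122859374. Prkg1 (ENSMUSG00000052920) spans 1201 kb at chr19:30564489-31765033 on the minus strand, Pde7b (ENSMUSG00000019990) lies at chr10:20398004-20725078 on the minus strand, and Rgs5 (ENSMUSG00000026678) at chr1:169655501-169695813 on the plus strand. All 6 genes matched the RefSeq promoter table of build GRCm38.p6, which gave 8 windows of 300 bases, each running from 250 bases before a transcription start to 50 bases after it. The windows of the 4 genes that were lower in cells with a high Myog level are shown, because each holds the E-box CAGCTG, a sequence that MyoD and myogenin are known to bind. It is 1 of 6 motifs searched on both strands, and the one shown was chosen after the matches were seen. The E-box is in capitals, and the sequences run 5′ to 3′ on the strand of the gene. For Gucy1b1, Gucy1a1, Pde7b and Rgs5 in turn, the E-box begins 199 bases before the start, 10 before it, 182 before it and 26 after it. The Pde7b window lies inside the GENCODE span of the gene and not at its 5′ end, chr10:20725078, which was not searched.
Gucy1a1, chr3:82145601-82145900, minus strand: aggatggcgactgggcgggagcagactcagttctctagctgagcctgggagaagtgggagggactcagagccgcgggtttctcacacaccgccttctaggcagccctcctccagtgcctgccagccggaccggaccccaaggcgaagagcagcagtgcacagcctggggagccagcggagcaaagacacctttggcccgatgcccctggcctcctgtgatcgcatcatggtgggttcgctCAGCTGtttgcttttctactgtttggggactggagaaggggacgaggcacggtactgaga
Gucy1b1, chr3:82074662-82074961, minus strand: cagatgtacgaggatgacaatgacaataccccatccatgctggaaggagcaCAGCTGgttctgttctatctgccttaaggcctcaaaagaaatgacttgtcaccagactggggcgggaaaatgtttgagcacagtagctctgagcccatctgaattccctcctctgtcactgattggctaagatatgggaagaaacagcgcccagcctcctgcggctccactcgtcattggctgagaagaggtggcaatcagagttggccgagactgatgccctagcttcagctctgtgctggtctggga
Pde7b, chr10:20548279-20548578, minus strand: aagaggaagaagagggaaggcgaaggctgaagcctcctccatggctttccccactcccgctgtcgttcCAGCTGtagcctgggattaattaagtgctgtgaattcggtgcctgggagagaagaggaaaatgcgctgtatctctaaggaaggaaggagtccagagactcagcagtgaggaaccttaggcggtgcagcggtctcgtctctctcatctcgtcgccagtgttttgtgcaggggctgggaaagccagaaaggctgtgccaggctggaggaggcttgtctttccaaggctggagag
Rgs5, chr1:169655251-169655550, plus strand: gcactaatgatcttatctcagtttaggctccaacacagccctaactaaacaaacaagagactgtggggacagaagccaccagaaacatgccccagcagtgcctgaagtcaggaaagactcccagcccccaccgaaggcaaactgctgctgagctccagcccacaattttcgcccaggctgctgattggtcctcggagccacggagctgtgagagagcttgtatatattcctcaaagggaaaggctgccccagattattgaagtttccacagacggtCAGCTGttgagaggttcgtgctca
CAGCTG reads the same on both strands, and 16.3% of all 32851 promoter windows hold it (18.3% of 27025 genes in at least 1 window). The 1 window of Pde5a, the 2 windows of Prkg1 and the other window of Gucy1a1 do not hold these letters. The general E-box CANNTG, which includes CAGCTG and is in 72.3% of all windows, occurs 3 times in the Pde5a window, 3 times in that of Gucy1b1 and 1 time in each of the other 3 windows shown. GTGGGAA, in 6.38% of all windows, occurs 3 times in the Gucy1a1 window not shown and in no other. TGACG, in 20.8% of all windows, occurs in the Gucy1b1 window alone, and CATTCC (14.7%) and the CArG box (1.63%) in none of the 8. A match describes the sequence and is not evidence of binding.

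Over the kept cells, Prkg1 averaged 33.4 CPM, Pde7b 23.2 CPM, Pde5a 20.9 CPM, Gucy1a1 5.96 CPM, Rgs5 5.25 CPM and Gucy1b1 3.78 CPM. The files repeated these levels closely. Gucy1a1 ranged from 5.54 to 6.47 CPM over the files and Prkg1 from 32.4 to 34.4 CPM. These levels are not normalised for transcript length and are compared between cells for each gene, not between genes. Most cells held no UMI of a given member: after each cell was thinned to 5000 UMIs, which kept 5197 cells, the detected share was 2.36% for Gucy1a1, 1.77% for Gucy1b1, 1.93% for Rgs5, 6.56% for Pde7b, 8.46% for Prkg1 and 8.89% for Pde5a.

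Cells with little or no Myog, the transcription factor that marks commitment to differentiation, held nearly all of the Gucy1a1 signal. In the 2149 cells with Myog under 150 CPM, Gucy1a1 was at 15.0, 14.0, 13.8 and 13.1 CPM in files 1 to 4. In the 2330 cells with Myog of at least 1500 CPM it was at 0.173, 0.378, 0.458 and 0.378 CPM. The groups did not overlap, with a mean of 354.5 UMIs per file against 9.75, a ratio of 40.3-fold without the added CPM and a log2 ratio of -3.48 (95% interval -3.71 to -3.17) with it. Of the 12781 genes measured, 0.0391% had a lower log2 ratio than Gucy1a1, a rank that describes a gene chosen with its levels known.

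The beta subunit followed the same order with a smaller ratio. Gucy1b1 was at 7.29, 7.01, 7.82 and 7.50 CPM in cells with low Myog and at 0.727, 0.791, 0.741 and 1.21 CPM in cells with high Myog. No file of one group reached the other, and the log2 ratio was -2.18 (-2.48 to -1.83). Rgs5 was at 10.1, 10.6, 10.0 and 9.81 CPM against 0.901, 0.963, 1.13 and 1.10 CPM, with a log2 ratio of -2.46 (-2.76 to -2.13). Pde7b, the cyclic AMP phosphodiesterase, was at 37.5, 38.6, 37.0 and 38.8 CPM against 11.1, 12.6, 10.6 and 10.1 CPM, with a log2 ratio of -1.69 (-1.86 to -1.51). For both genes the groups stood clearly apart in every file.

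The kinase gene Prkg1 went the other way in the means of the groups. Prkg1 was at 18.8, 21.4, 20.2 and 18.8 CPM in cells with low Myog and at 50.6, 51.9, 53.2 and 50.2 CPM in cells with high Myog. Every file of the high group was above every file of the low group, with a log2 ratio of 1.34 (1.19 to 1.48). Among the high-Myog cells the higher mean lay in those rich in skeletal actin Acta1, as given below. Pde5a differed little, at 19.6, 19.8, 20.1 and 20.6 CPM against 22.8, 23.8, 23.3 and 23.4 CPM, a log2 ratio of 0.21 (0.05 to 0.38). In all, 4 members were called lower and 1 higher, where 15.4% of all genes measured were called lower and 7.39% higher. The median gene had a log2 ratio of -0.28, and median-ratio size factors in place of total UMIs shifted log2 ratios up by 0.33 before 1 CPM was added. With them the members ran from -3.28 for Gucy1a1 to 1.66 for Prkg1, and no direction changed.

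The finer Myog steps showed different courses for the members. Gucy1a1 was at 22.5 CPM in the 361 cells with no Myog UMI, 12.8 CPM in the 1788 cells above 0 and under 150 CPM, 2.60 and 2.08 CPM in the next 2 steps of 501 cells each (150 to 500 and 500 to 1500 CPM), 0.539 CPM in 1241 cells from 1500 to 4000 CPM and 0.084 CPM in 1089 cells above that. The level was thus lower at each step, and most of the difference lay below 500 CPM of Myog. Gucy1b1 passed through 9.58, 7.095, 4.10, 2.02, 1.15 and 0.481 CPM over the same 6 groups. Pde7b was at 51.0, 36.1, 23.5, 17.9, 13.2 and 8.35 CPM, and Rgs5 at 11.3, 9.97, 5.67, 4.22, 1.09 and 0.932 CPM. The means of all 4 genes were ordered against Myog at every step, but not every step was larger than counting error. The 95% intervals of neighbouring groups overlapped at all 5 steps for Gucy1b1, from 150 to 1500 CPM and above 1500 CPM for Gucy1a1 and Rgs5, below 150 CPM for Rgs5, and from 150 to 4000 CPM for Pde7b. The Gucy1a1 level above 4000 CPM rested on 1 UMI per file (95% interval 0.0021 to 0.468 CPM), which is under the 3 UMIs that a count of 0 allows.

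Prkg1 had its highest level between the ends of this order. It was at 20.1, 19.7, 14.0 and 25.6 CPM in the 4 groups below 1500 CPM of Myog, at 66.8 CPM from 1500 to 4000 CPM, and at 30.4 CPM in the cells above 4000 CPM. The log2 ratio of the last group over the one before it was -1.11, which made Prkg1 the 1 member called lower there, beside 3.5% of all genes called lower and 0.151% higher. Pde5a stayed between 17.0 and 23.5 CPM over all 6 groups, with overlapping intervals of neighbours except across 1500 CPM.

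**Figure D1:**
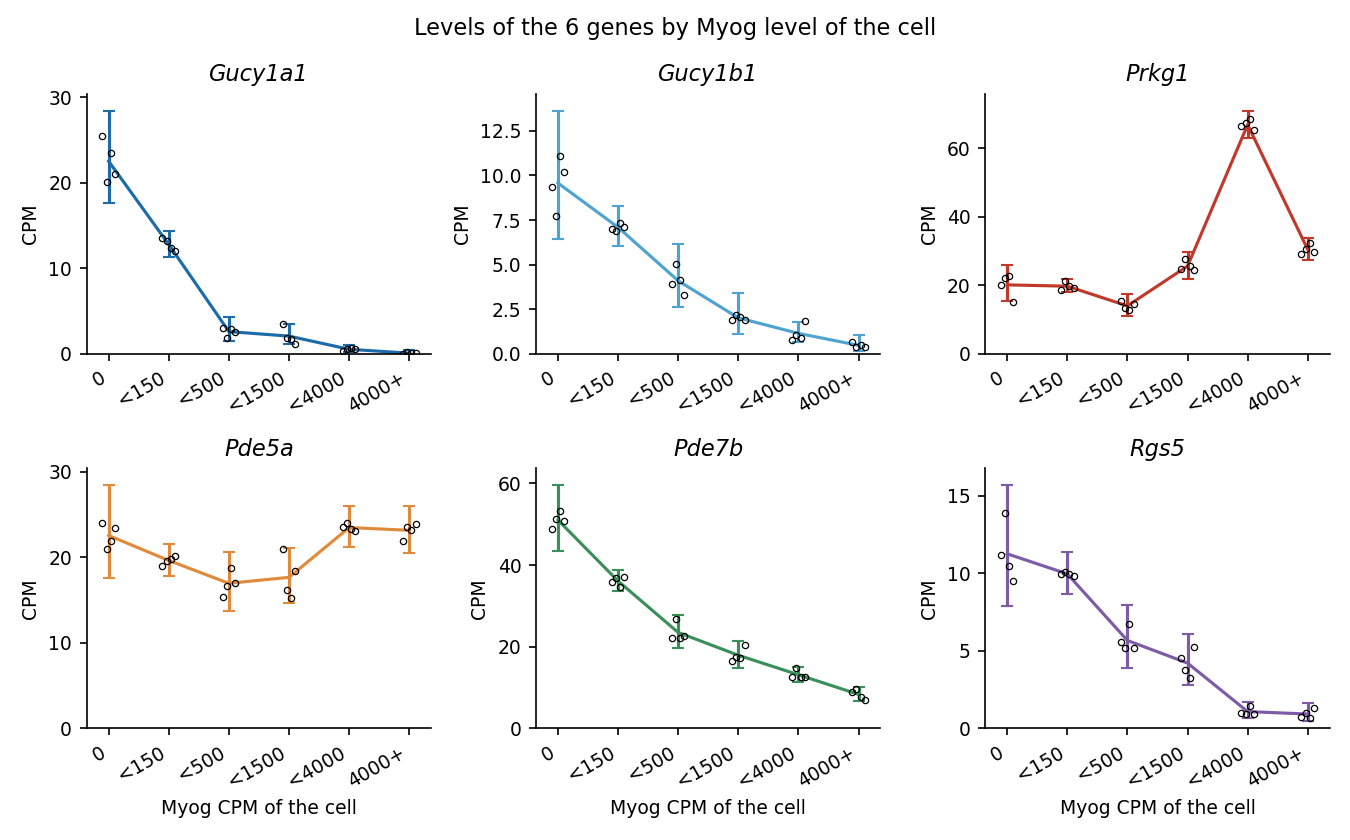
Level of each gene in CPM (y axis, 1 panel per gene) in 6 groups of kept cells ordered by Myog CPM (x axis); open circles are the 4 files, the line is their mean and whiskers are exact 95% Poisson intervals. Gucy1a1 goes from 22.5 to 0.084 CPM, while Prkg1 has its highest level, 66.8 CPM, at 1500 to 4000 CPM of Myog.

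The level of nuclear RNA differed among barcodes, and of the members Prkg1, Pde7b and Pde5a differed most with it. The 463 barcodes left out by the filters had a median of 1207 UMIs, Malat1, a nuclear RNA, at 23325 CPM, and Prkg1 at 287 CPM, Pde7b at 66.2 CPM and Pde5a at 53.1 CPM. Gucy1a1, Gucy1b1 and Rgs5 were at 3.102, 2.46 and 6.05 CPM there. In the 375 kept cells poor in Malat1 (267 CPM, 6.84% of the kept cells), Prkg1 was at 2.67 CPM, Pde7b at 1.80 CPM and Pde5a at 6.17 CPM, against 4.43, 3.55 and 2.60 CPM for Gucy1a1, Gucy1b1 and Rgs5. The 3 longest of the 6 genes thus moved most with Malat1. Rgs5, the shortest at 40.3 kb, went the same way by less, with 5.25 CPM over all kept cells. Low-Myog cells with Rgs5 also had more Malat1, as given below. The part of Malat1 or of gene length in the other results was not tested.

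Cells in which Pax7, the transcription factor of satellite cells, was detected had more Gucy1a1 even when Myog was low in both groups. Among cells with Myog under 150 CPM, 1592 had a Pax7 UMI in at least 2 files and 250 had none in any file. Gucy1a1 was at 17.8, 17.0, 15.9 and 15.6 CPM in files 1 to 4 with Pax7 and at 3.44, 2.13, 5.70 and 4.23 CPM without it. The groups did not overlap, although the second rested on 8.75 UMIs per file, and the log2 ratio was 1.90 (1.05 to 2.70).

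Gucy1b1 and Rgs5 differed in the same direction. Gucy1b1 was at 8.29 against 2.84 CPM, a log2 ratio of 1.29 (0.37 to 2.17), and Rgs5 at 10.9 against 3.86 CPM, a log2 ratio of 1.30 (0.49 to 2.14). These 3 members were called higher with Pax7 and 0 lower, where 1.44% of all genes measured were called higher and 0.0088% lower. With median-ratio size factors only 1 member was still called. Rgs5 depended on the files: its log2 ratio was 0.70 without file 3 and 0.58 without file 4, both in the levels and in the Pax7 grouping, and 2 members were called without file 1, 3 or 4. Prkg1 (22.0 against 9.44 CPM, log2 1.20), Pde7b (41.7 against 20.7 CPM, log2 0.98) and Pde5a (21.6 against 11.6 CPM, log2 0.85) were higher on average but below 2-fold in at least 1 file. The median gene had a log2 ratio of 0.23 in this comparison.

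Cells without Pax7 also differed in depth and in Malat1. Their median was 8826 UMIs against 11542, their Malat1 level 3997 against 8497 CPM, and 34% of them were poor in Malat1 against 3.64%. Without the Malat1-poor cells, 1534 cells with Pax7 and 165 without remained, and the log2 ratios were 1.99 for Gucy1a1, 1.31 for Gucy1b1, 1.25 for Rgs5, 0.81 for Prkg1, 0.54 for Pde5a and 0.50 for Pde7b. Gucy1a1 and Gucy1b1 still passed 2-fold in every file, beside 0.496% of genes called higher and 0.0177% lower, and Rgs5 was below it in 1 file. With the Malat1-poor cells included, the log2 ratio of Pde7b was 0.98 on average and 0.79, 0.98, 1.02 and 1.14 in files 1 to 4. It was 0.42 when file 4 was left out of the levels and of the grouping by Pax7 and Myog. The value thus moved with the grouping of the cells.

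Among the cells with Myog of at least 1500 CPM, 194 had Pax7 in at least 2 files and 1901 in none, with median depths of 17778 and 10711 UMIs. The log2 ratios there were 1.33 for both Gucy1a1 and Gucy1b1, 1.29 for Pde7b, 0.64 for Rgs5, -0.01 for Pde5a and -0.29 for Prkg1. Only Pde7b was called, beside 5.17% of genes called higher and 0.0272% lower, and the value for Gucy1a1 rested on 7 and 2.75 UMIs per file. The 2 groups thus differed in depth, whose part in these ratios was not tested.

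The Pax7 comparison was repeated within cycling and within non-cycling low-Myog cells, a split added after the values were seen. In 458 non-cycling cells with Pax7 (summed Mki67 and Top2a under 50 CPM) against 98 without, Pde7b was at 111 against 38.9 CPM (log2 1.49) and Rgs5 at 32.9 against 7.81 CPM (log2 1.97). With Gucy1a1, at a log2 ratio of 2.13, 3 members were called higher there, beside 1.81% of genes called higher and 0.0602% lower. The cells without Pax7 held 3.5 UMIs of Gucy1a1 and 6 of Rgs5 per file. Their intervals, 0.75 to 3.49 and 0.88 to 3.16, reached below 2-fold. In 949 cycling cells with Pax7 (200 CPM or more) against 81 without, the log2 ratio was 1.60 for Gucy1a1, 1.80 for Gucy1b1, 0.79 for Pde7b and 0.66 for Rgs5. Only Gucy1b1 was called, beside 0.751% of genes higher and 0.038% lower, and the cells without Pax7 held 1.75 of its UMIs per file. For all 6 members the intervals of the cycling and non-cycling cells overlapped, and no difference between them was tested. Malat1 was at 14184 against 6419 CPM in the non-cycling and 6965 against 3315 CPM in the cycling cells, and its part was not tested.

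Over all kept cells, where Pax7 and Myog vary together, the ratios with Pax7 were 3.06 for Gucy1a1, 2.14 for Gucy1b1, 2.01 for Rgs5, 1.64 for Pde7b, -0.01 for Pde5a and -0.71 for Prkg1. These first 4 members were called higher, beside 11.7% of genes called higher and 4.85% lower.

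Pde7b and Rgs5 were set apart from the cyclase genes by the cell cycle. The summed level of Mki67 and Top2a, genes of dividing cells, split the cells with Myog under 150 CPM into 1185 cycling cells (at least 200 CPM) and 646 cells with little of either gene (under 50 CPM). Pde7b was at 17.1, 20.0, 16.1 and 18.0 CPM in cycling cells and at 95.4, 92.7, 96.8 and 96.4 CPM in the others. Rgs5 was at 3.70, 4.34, 3.52 and 3.31 CPM against 28.9, 30.8, 27.8 and 29.1 CPM. All 4 files of the non-cycling cells lay far above all 4 of the cycling cells, with log2 ratios of -2.36 (-2.56 to -2.16) for Pde7b and -2.68 (-3.04 to -2.31) for Rgs5. Both were called lower in cycling cells and 0 members higher, where 1.79% of 11344 genes measured were called lower and 5.06% higher. A lower ratio than that of Pde7b was found for 0.0529% of genes, and than that of Rgs5 for 0.00882%. Both genes were chosen with these levels known, so the ranks are descriptions.

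The cyclase subunits and the other members differed by less than 2-fold in that comparison. Gucy1a1 was at 13.7 CPM in cycling against 18.3 CPM in non-cycling cells, a log2 ratio of -0.40 (-0.71 to -0.07). Gucy1b1, its partner, was at 8.54 against 5.25 CPM, a log2 ratio of 0.62 (0.11 to 1.12). The ratios of the 2 subunits thus had opposite signs, and their intervals did not overlap. Prkg1 was at 18.9 against 26.5 CPM (log2 -0.46) and Pde5a at 20.4 against 20.7 CPM (log2 -0.02). The opposite signs of the subunits depended on the cut. With cycling cells taken at 1000 CPM or more, the log2 ratio was 0.03 (-0.33 to 0.41) for Gucy1a1 and 0.91 (0.34 to 1.46) for Gucy1b1.

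Over 4 steps of Mki67 and Top2a, from under 50 CPM through 50 to 200 and 200 to 1000 CPM to 1000 CPM and over, Pde7b was at 95.3, 33.6, 16.2 and 20.3 CPM. Rgs5 was at 29.2, 7.33, 3.46 and 4.13 CPM. For both genes most of the difference lay between the first 2 steps. Gucy1a1 had no such order, at 18.3, 7.59, 10.5 and 18.8 CPM, and neither did Prkg1, at 26.5, 12.04, 11.6 and 30.5 CPM. Gucy1b1 was at 5.25, 5.73, 7.22 and 10.6 CPM, higher at each step. The 7 fibroblast markers summed to 288 CPM in the non-cycling cells (under 50 CPM) against 196 CPM in the cycling cells (200 CPM and over), and the 16 pericyte and smooth muscle markers to 734 against 546 CPM. Malat1 was at 12988, 5181, 5092 and 8696 CPM over the same steps, so it too was higher in the first and last groups than between them, and the part of these in the courses was not tested.

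**Figure D2:**
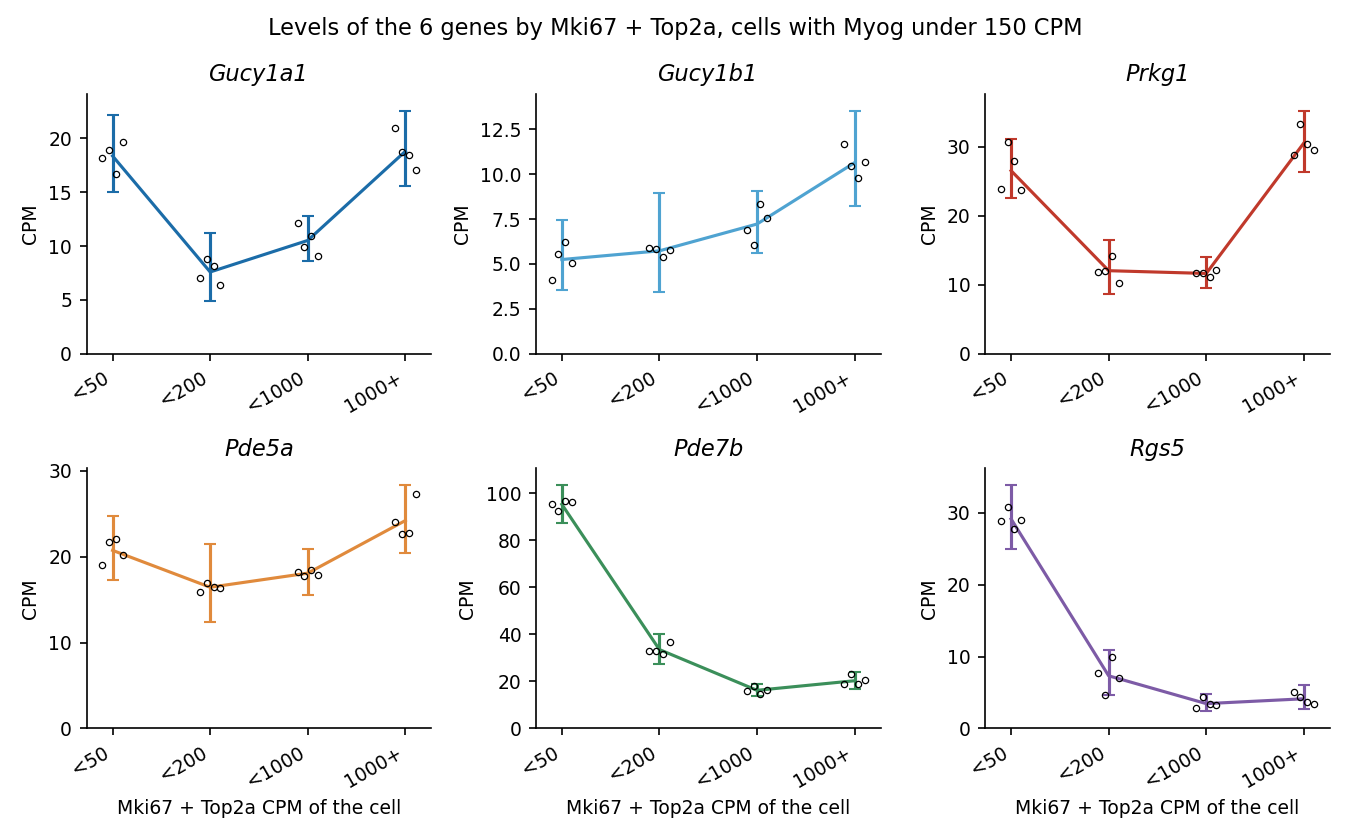
Level of each gene in CPM (y axis, 1 panel per gene) in cells with Myog under 150 CPM, in 4 groups by summed Mki67 and Top2a CPM (x axis); open circles are the 4 files and whiskers exact 95% Poisson intervals. Pde7b goes from 95.3 to 16.2 CPM and Rgs5 from 29.2 to 3.46 CPM by the third group, and Pde5a stays between 16.4 and 24.2 CPM.

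At high Myog, the split by Mki67 and Top2a gave other values. Among cells with Myog of at least 1500 CPM, 320 passed 200 CPM and 1763 were under 50 CPM. Pde7b and Rgs5 had log2 ratios of -0.03 and -0.21 there. Prkg1 was at 23.0 CPM in the cycling against 61.4 CPM in the other cells, a log2 ratio of -1.38 and the largest difference of the 6 in these cells, where 2.4% of all genes were called lower and 7.52% higher. The ratio for Gucy1b1 was 0.95, and that for Gucy1a1, 0.73, rested on 4.5 and 2.5 UMIs per file. The cycling high-Myog cells also had less skeletal actin Acta1, at 1558 against 5554 CPM. From 1500 to 4000 CPM of Myog, Prkg1 was also read in bands of Acta1, in cycling against other cells. It was at 10.3 against 15.3 CPM under 500 CPM of Acta1, 14.6 against 9.14 CPM from 500 to 3000, and 91.4 against 154 CPM above. The intervals overlapped in all but the last band, and the part of Acta1 was not tested. Over all kept cells Gucy1b1 was called higher in cycling cells (log2 1.53) and Prkg1 (-1.34) and Rgs5 (-1.17) lower, beside 8.25% of genes called higher and 4.83% lower, while Pde7b, at -1.06, was below 2-fold in 1 file.

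Gucy1a1 and Gucy1b1 were found in the same cells more often than in others. With every cell thinned to 5000 UMIs, Gucy1b1 was detected in 18.6% (12.1 to 26.6) of the cells with a Gucy1a1 UMI and in 1.37% (1.06 to 1.72) of the cells without one. The difference was 17.2 percentage points (10.7 to 25.2), and in files 1 to 4 it was 17.0, 17.3, 18.5 and 16.0 points. The 4 files thus gave nearly the same pairing. With Gucy1a1 read in one file and Gucy1b1 in another it was 16.8 points. Of the cells with a Gucy1a1 UMI in a file, 48.7% had one again in another given file, against 25.3% for Gucy1b1, 50.2% for Pde7b, 49.4% for Prkg1, 42.9% for Rgs5 and 23.0% for Pde5a, shares that molecules common to the files would raise.

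The pairing was also present within narrower groups of cells. Within the 2013 thinned cells with Myog under 150 CPM, Gucy1b1 was detected in 19.1% of Gucy1a1 cells and 2.64% of the others, a difference of 16.5 points (9.62 to 25.02) and of 16.0 points between different files. It was 18.1 points (4.18 to 39.1) in cells with no Myog UMI and 16.0 points in those above 0 and under 150 CPM. Among the low-Myog cells it was 17.6 points where Pax7 was detected, 16.5 points without the Malat1-poor cells (16.1 points in another set of draws), 18.7 points in cycling cells and 11.5 points (2.50 to 26.3) in non-cycling cells. The pairing was therefore seen at like size in each of these groups, with wide intervals. At higher Myog the thinned cells held few with Gucy1a1, 7.95 on average from 150 to 1500 CPM of Myog and 2.58 above.

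The full depth of the 4 files gave the same picture in counts of cells. Of the 5481 kept cells, 179 had a UMI of both subunits in any of the files, 182 had only Gucy1a1, 261 had only Gucy1b1 and 4859 had neither. Gucy1b1 was thus seen in 49.6% of the Gucy1a1 cells and in 5.10% of the others, and 40.7% of the Gucy1b1 cells had Gucy1a1. In the low-Myog cells these counts were 154, 153, 152 and 1690. From 150 to 1500 CPM of Myog they were 20, 17, 52 and 913, so that 54.1% of the Gucy1a1 cells had Gucy1b1 against 5.39% of the others. Above 1500 CPM they were 5, 12, 57 and 2256, or 29.4 against 2.46%. These shares are not matched for depth.

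The other alpha subunit did not pair in this way. In low-Myog cells, Gucy1b1 was detected in 4.87% of the cells with Gucy1a2 and 3.50% of those without, a difference of 1.37 points (-2.26 to 8.49). The 2 alpha subunits differed from independence by 1.77 points (-1.90 to 7.89). The intervals of both pairs include 0 and exclude the 16.5 points of Gucy1a1 with Gucy1b1.

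The members other than the subunits were not detected more often beside Gucy1a1 by more than counting error. Prkg2, the second cyclic GMP-dependent kinase, is not among them. The level of Prkg1 at full depth was higher in Gucy1a1 cells, as given below. In thinned low-Myog cells with Gucy1a1 against those without, Prkg1 was detected in 11.7 against 6.83%, a difference of 4.88 points (-0.56 to 12.4). Pde5a was detected in 7.70 against 8.98%, Pde7b in 6.97 against 10.4% and Rgs5 in 1.81 against 3.66%, and all 3 intervals of the difference include 0. The transcription factors of the lineage did differ: Pax7 was detected in 58.4 against 38.5% and Myod1 in 34.7 against 66.2%, differences of 19.9 points (9.95 to 29.4) and -31.5 points (-40.5 to -21.7). Notch3, a Notch receptor of satellite cells and of pericytes, was detected in 58.4 against 31.8%.

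**Figure D3:**
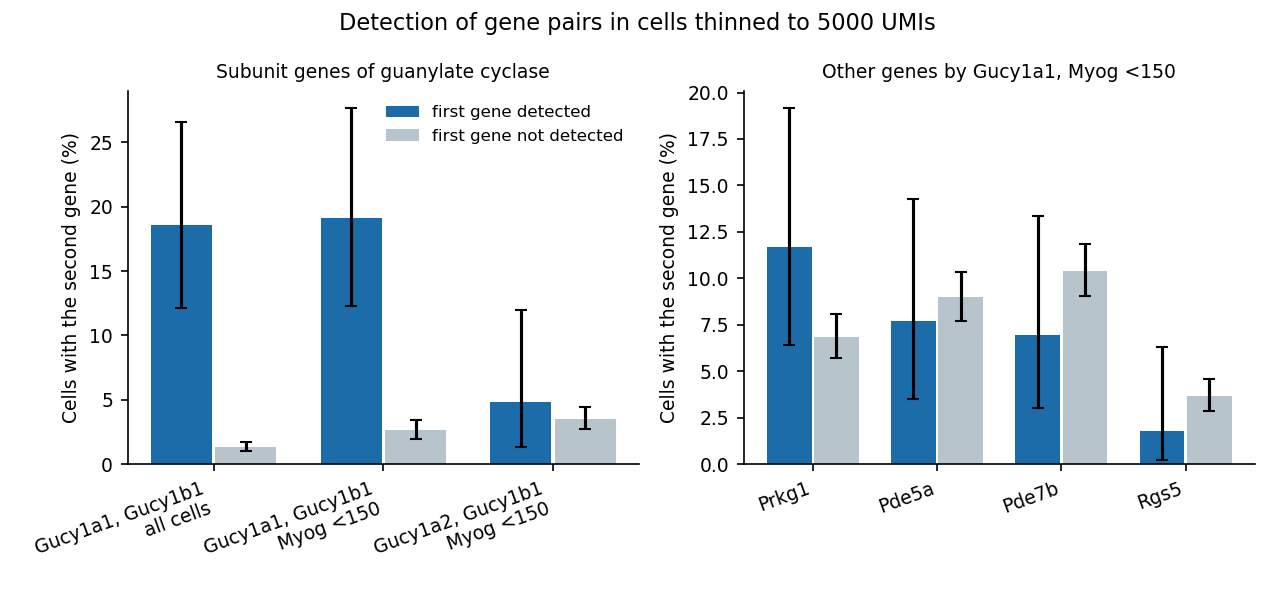
Share of cells with a UMI of the second gene (y axis, percent) in cells with and without a UMI of the first gene (colours), thinned to 5000 UMIs; the left panel shows pairs of cyclase subunits, the right panel other genes by Gucy1a1 in cells with Myog under 150 CPM, bars are means over the 4 files and 20 draws and whiskers exact 95% binomial intervals. Gucy1b1 is at 18.6% with Gucy1a1 and 1.37% without it over all cells.

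The levels in Gucy1a1 cells gave the same order of partners. Among low-Myog cells, 204 had Gucy1a1 in at least 2 files and 1842 in none. Gucy1b1 was at 45.2 CPM in the former and 3.13 CPM in the latter, and Prkg1 at 33.1 against 18.0 CPM. Pde7b was lower in Gucy1a1 cells, at 14.0 against 39.7 CPM, as was Rgs5, at 4.16 against 10.6 CPM, while Pde5a was at 18.0 against 20.3 CPM. Myod1 was at 118 against 356 CPM and Pax7 at 189 against 102 CPM. Among the 16 pericyte and smooth muscle markers, 8 passed 1 CPM in Gucy1a1 cells and 6 in the others, with a sum of 841 CPM (826 to 852 over the files) against 562 CPM (555 to 565). Notch3 was at 199.6 against 78.9 CPM, Pdgfrb at 24.4 against 7.44 CPM and Tagln at 48.0 against 12.7 CPM. Higd1b and Kcnj8 were at 0 in the Gucy1a1 cells, and Myh11 and Cnn1 were at 0.110 and 0.113 CPM, no higher than in the others. Counts of 0 in these cells allow up to 1.67 CPM. The fibroblast markers summed to 277 against 209 CPM, with 4 against 2 of 7 over 1 CPM, and the part of these markers in the result was not tested.

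Rgs5 and Pde7b were each higher in the cells with the other. The 135 low-Myog cells with Rgs5 in at least 2 files had Pde7b at 128 CPM, against 30.6 CPM in the 1896 cells with none. Their Gucy1a1 level was 7.42 against 14.9 CPM, and their Gucy1b1 level 7.94 against 7.36 CPM. Conversely, the 390 cells with Pde7b in at least 2 files had Rgs5 at 25.1 CPM, against 6.08 CPM in 1559 cells with none. In the Rgs5 cells 8 of the 16 pericyte and smooth muscle markers passed 1 CPM against 6 in the cells without, and the sum was 708 (691 to 724) against 586 CPM (581 to 589). Notch3 was at 115 against 90.5 CPM, Abcc9 at 2.24 against 0.575 CPM, Kcnj8 at 0.317 against 0.0559 CPM and Pdgfrb at 7.99 against 10.1 CPM, and Higd1b and Ndufa4l2 were at 0, which allows up to 2.40 CPM. The fibroblast markers summed to 292 against 211 CPM in the Rgs5 cells and to 256 against 205 CPM in the Pde7b cells. Malat1 was at 14607 against 7298 CPM in the Rgs5 cells and at 10680 against 6847 CPM in the Pde7b cells, and the part of these was not tested.

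The pairing of Pde7b with Rgs5 was largest in non-cycling cells. In thinned low-Myog cells, Rgs5 was detected in 9.09% of the cells with Pde7b and 2.92% of those without, a difference of 6.17 points (2.50 to 11.01). In non-cycling cells Rgs5 was seen in 16.4 and 6.21% of these cells, 10.2 points apart (3.02 to 19.1) within files and 10.5 points between files. In cycling cells it was seen in 2.23 and 1.71%, 0.52 points apart (-1.73 to 6.93). The intervals of the cycling and non-cycling cells overlap, so the difference between them was within counting error.

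The UMIs of every member were found in few cells. Scarce counts alone raise such shares, and the share expected from counting was not computed. In low-Myog cells, the top 10% of cells for a gene held 97.9% of its level for Rgs5, 93.4% for Gucy1a1, 89.4% for Gucy1b1, 83.0% for Pde7b, 78.8% for Prkg1 and 53.2% for Pde5a. The share of cells with no UMI in any of the 4 files was 88.2% for Rgs5, 85.8% for Gucy1b1, 85.7% for Gucy1a1, 77.1% for Prkg1, 72.5% for Pde7b and 58.8% for Pde5a. Pde5a was thus the most evenly spread of the 6, with a coefficient of variation (CV) of 1.47 over cells against 2.94 to 5.51 for the others.

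Prkg1 UMIs were found in few of the cells with high Myog. Of the 2330 cells with Myog of at least 1500 CPM, 1702 (73.0%) had no Prkg1 UMI in any file. The 75th percentile was 15.9 CPM, the 90th 98.6 CPM, the 95th 235 CPM, the 99th 864 CPM and the highest cell 2614 CPM. The top 10% of cells held 85.2% of the level. The CV was 3.65, where the median of the 8301 genes with at least 200 UMIs per file was 0.909 and 0.434% of them (36 genes) had a higher CV. These genes were not matched for level. Unless stated otherwise, each CV was taken from the covariance between files. That leaves out counting error only if the files hold separate molecules, which is not known, so counting error may remain in it. Among the members in the same cells, Pde5a had the lowest CV, 1.44, and Prkg1 the second lowest. The CV was 5.84 for Pde7b, 5.95 for Gucy1b1, 8.11 for Rgs5 and 11.3 for Gucy1a1, the last 3 on fewer than 50 UMIs per file.

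Cells high in Prkg1 in one file were high in the others. The Prkg1 level of a cell correlated between any 2 files at r of 0.870 to 0.896 over the 2330 cells. The 508 cells with a Prkg1 UMI in file 1 or 2 were at 192 and 182 CPM in files 3 and 4, where the 1822 cells with none were at 4.43 and 3.99 CPM. In cells thinned to 5000 UMIs (2247 cells), the ratio of variance to mean was 3.97 (3.91 to 4.09 over the files) at a mean of 0.232 UMIs, where counting error alone gives 1. The spread was thus of like width in each of the 4 files, which is a check of the reading and not of new cells, and the files may share molecules.

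A cut at 200 CPM, chosen after the values were seen, placed 131 of the 2330 cells (5.62%, 4.72 to 6.64) above it, and these held 72.1% of the Prkg1 level. They made up 7.66% of the cells from 1500 to 4000 CPM of Myog (95 cells), 3.31% of those above 4000 CPM (36 cells) and 1.63% of the low-Myog cells (35 cells). They were most frequent in cells rich in Acta1, the skeletal actin of maturing myocytes. Of the 1163 cells with Acta1 of at least 3000 CPM, 121 were above 200 CPM of Prkg1 (10.4%, 8.71 to 12.3). In the 464 cells under 500 CPM of Acta1 the share was 0.862%, and in the 703 cells between these bounds it was 0.853%. Most Acta1-rich cells still held no Prkg1 UMI in any file (62.5%). None of the 131 cells was poor in Malat1, 6.87% of them were among the 5% of cells with the most UMIs, and their median depth was 13050 UMIs.

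Prkg1 and Pde5a were both highest in the Acta1-rich cells, and Pde7b was lowest there. Over the 3 Acta1 groups, Prkg1 was at 11.5, 11.8 and 87.1 CPM, with 86.1, 88.1, 88.8 and 85.4 CPM in files 1 to 4 of the top group. Pde5a was at 11.7, 14.7 and 32.0 CPM, and Pde7b at 28.4, 11.7 and 5.24 CPM. Within the top Acta1 group, Prkg1 was at 143 CPM in the 469 cells from 1500 to 4000 CPM of Myog and at 40.6 CPM in the 694 cells above. The highest level was thus in cells with much Acta1 and a moderate level of Myog. The CV was 2.21 in the former and 3.19 in the latter. It was 3.37 over all cells from 1500 to 4000 CPM of Myog and 3.70 above, so the CV was not largest where the mean was highest.

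**Figure D4:**
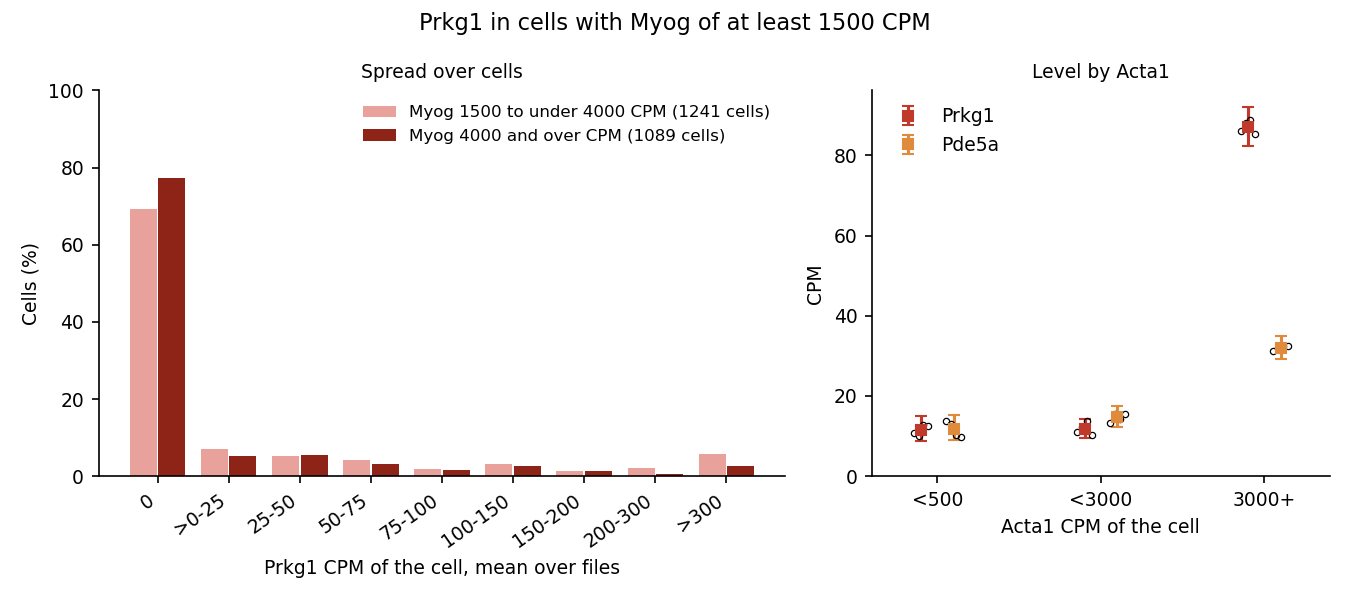
Left, share of cells (y axis, percent) by Prkg1 CPM (x axis) in groups of Myog CPM; right, Prkg1 and Pde5a CPM by Acta1 CPM group in cells with Myog of at least 1500 CPM, with the 4 files as circles and exact 95% Poisson intervals as whiskers. Most cells sit at 0 and few reach 200 CPM or more, and Prkg1 goes from 11.5 to 87.1 CPM from the lowest to the highest Acta1 group.

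The 582 high-Myog cells with the most Prkg1 over all files were compared with the 1702 that had none. Acta1 was at 7004 against 3596 CPM and the embryonic myosin Myh3 at 2555 against 917 CPM. Log2 ratios were smaller for Ckm (0.83), Ttn (0.44), Mymk (0.40), Mymx (0.30) and Tnnt1 (0.20), and below 0 for Myod1 (-0.40) and Nos1 (-0.70). The calcium store protein Casq2 was at 282 against 75.7 CPM and the calcium channel subunit Cacna1s at 81.7 against 28.3 CPM. These 2 genes, and Npm1 and Actb below, were picked by their correlation with Prkg1 over the same cells. Their differences therefore follow from that choice. Pde5a was at 33.8 against 18.9 CPM, a log2 ratio of 0.81 (0.59 to 1.03). Myog itself was slightly lower, at 3633 against 4030 CPM, as were Pde7b, at 8.44 against 12.2 CPM, Npm1, a nucleolar protein, at 1074 against 1445 CPM, and the cytoplasmic actin Actb, at 1293 against 2054 CPM. Malat1 was at 10590 against 8530 CPM, the other 232 genes spanning at least 500 kb summed to 12817 against 10778 CPM, and the median depth was 12628 against 10556 UMIs. Their part in the spread of Prkg1 was not tested.

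Over the 2330 cells, the genes whose level was most like that of Prkg1 were Casq2 (Pearson r of 0.54), Fn3k, an enzyme that removes sugars from proteins (0.53), Pacsin3, a membrane-shaping protein (0.48), the fatty acid binding protein Fabp3 (0.48) and Cacna1s (0.47), among 8301 genes. Myh3 was at 0.42, Acta1 at 0.30, Pde5a at 0.21, Malat1 at 0.19 and Myog at -0.12. The least like were Npm1 and Actb (both -0.41) and Actg1 and Rpl32 (both -0.40). The cells share files, and deeper cells give higher values to scarce genes, so these correlations are descriptions only.

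The wider pathway was read from lists of related genes, each compared between cells with high and low Myog by the same rule. In the list of cyclic GMP and nitric oxide genes, 13 of the 33 present passed the filter of 50 UMIs, of which 5 were called lower and 2 higher (15.4% and 7.39% over all genes), with a median log2 ratio of -0.12. Without the members, 3 of 10 were lower and 1 higher, and the median was 0.01, against -0.28 for all genes. Prkg2, the second cyclic GMP-dependent kinase, was at 2.87 CPM in high-Myog against 27.1 CPM in low-Myog cells (log2 -2.86), the reverse of Prkg1. Gucy1a2, the other alpha subunit, was at 1.04 against 9.58 CPM (log2 -2.38), the same direction as Gucy1a1. The cyclic nucleotide exporter Abcc4 was at 3.96 against 14.5 CPM (log2 -1.64). Vasp, an actin regulator and a substrate of the kinase, was at 237 against 76.8 CPM (log2 1.61), and Nos1 at 15.1 against 6.57 CPM, a log2 ratio of 1.09 that was below 2-fold in at least 1 file.

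Among the phosphodiesterases, 8 of 16 measured were called lower and 0 higher, beside 15.4% and 7.39% over all genes, with a median log2 ratio of -1.09. Without Pde5a and Pde7b, 7 of 14 were lower and the median was the same. Pde4b, which acts on cyclic AMP, was at 6.70 against 68.0 CPM (log2 -3.16), and Pde1a, Pde3b, Pde3a, Pde4a, Pde8a and Pde1c had log2 ratios from -2.27 to -1.29. Pde5a, at 0.21, Pde6a, at 0.52 (3.20 against 1.93 CPM), and Pde7a, at 0.54 (65.6 against 44.9 CPM), were above 0. The 2 Pde7 genes thus lay on opposite sides, as did the 2 kinase genes. With Mki67 and Top2a in low-Myog cells, Pde7b stood lowest of the 16 at -2.36, while Pde7a was at 0.03 and Pde3b highest at 1.54.

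Of the RGS genes, 9 of 11 measured were called lower and 1 higher, against the same 15.4% and 7.39%, with a median of -1.61 and of -1.42 without Rgs5. Rgs4 and Rgs17 (both -2.97) were lower than Rgs5 (-2.46), followed by Rgs10 (-2.04), Rgs3 (-1.88), Rgs2 (-1.61) and Rgs20 (-1.23), while Rgs16 was at 39.3 against 4.20 CPM (log2 2.96). Rgs5 was not set apart by Myog within its family. It stood lowest of the 11 with Mki67 and Top2a, at -2.68, followed by Rgs2 at -1.66 and Rgs4 at -1.17. In the list of cyclic AMP synthesis and response genes, 6 of 15 measured were called lower and 2 higher (15.4% and 7.39% over all genes), with a median of -0.56: the cyclases Adcy7 (-1.84), Adcy3 (-1.76), Adcy6 (-1.54) and Adcy2 (-1.28), the kinase subunit Prkar2b (-1.56) and the exchange factor Rapgef4 (-1.31) were lower, and Prkar2a (1.74) and Adcy1 (1.51) higher.

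**Figure D5:**
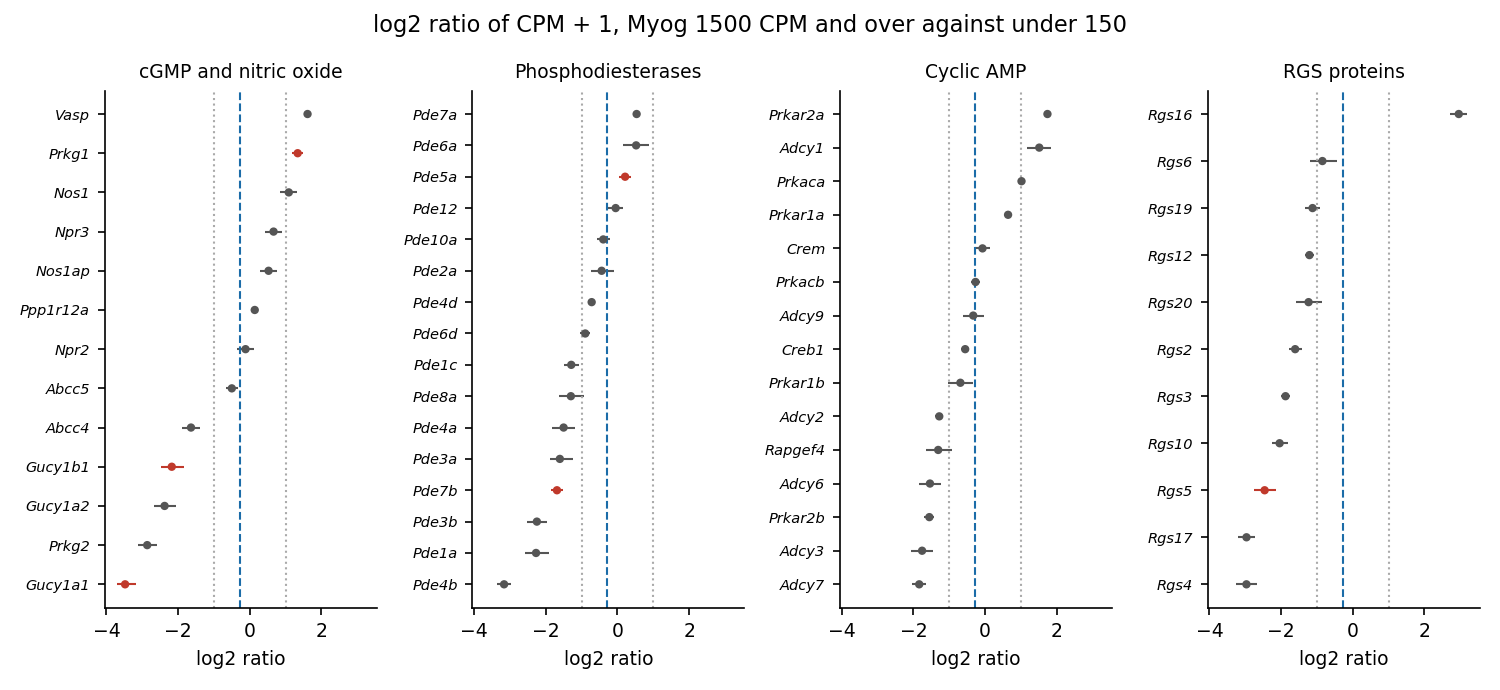
Log2 ratio of levels in cells with Myog of at least 1500 CPM over cells under 150 CPM (x axis) for each measured gene of the 4 lists (1 panel each), with exact 95% intervals as bars, the 6 described genes in red, the median of all genes as a dashed line at -0.28 and 2-fold as dotted lines. Among the phosphodiesterases, Pde4b is lowest at -3.16, and no gene of that list is called higher.

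Last, the course of each member was compared with 10774 genes over 22 groups of cells made from Myog, Pax7 and the cell cycle genes, by Pearson r of log2 levels. Among the members, Pde7b was most like Rgs5 (0.865), Gucy1a1 most like Gucy1b1 (0.859) and Prkg1 most like Pde5a (0.803). Gucy1a1 was most like 4833422C13Rik (0.957), Frmd6 (0.946) and Pdgfrb, a growth factor receptor (0.938), and Gucy1b1 most like Nr2f2, a nuclear receptor (0.925), and Nab1 (0.923). Prkg1 was most like Fam160a1 (0.854) and Rftn2 (0.851), and Pde5a most like Plcl1 (0.837) and Ptprk, a phosphatase (0.821). Pde7b was most like Thbs2, a matrix protein (0.938), and Rgs5 most like Mgst1, a glutathione enzyme (0.938), with Thbs2 also among its 5 nearest (0.913). The 22 groups share files and neighbouring groups resemble each other, so these values describe the courses only.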

How the data were processed

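The authors deposited, for each barcode, whole-number UMI counts of every gene, not normalized, from mouse MyoD-KI muscle stem cells. The counts were written by cellranger 7.1.0, per the file headers. The submitters' processing notes name Cell Ranger 3.1.0 and the builds mm10 and GRCm39, and which of these made the deposited counts is not given in the sources used here, nor are the treatment of intronic reads and the calling of barcodes. Intronic reads would add counts to long genes such as Prkg1. Of the gene IDs, 32158 (99.6%) matched GENCODE M21 (GRCm38), which gave coordinates.

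From the counts, barcodes in all 4 files with a mean of at least 1000 genes and under 10% mitochondrial UMIs were kept. The files total 62627341 to 68898900 UMIs. Groups of cells were summed per file to CPM, log2 ratios used a pseudocount of 1 CPM, and a call needed 2-fold in every file and 50 UMIs per file over both groups. Pax7 counted as detected with a UMI in at least 2 files. Shares of cells used cells thinned to 5000 UMIs (mean of 20 draws, 5197 cells, 284 shallower cells left out). No doublet caller was run; an alternative left out the 5% of cells with the most UMIs. Likeness was Pearson r of log2(CPM + 1) over groups of at least 30 cells, or of the natural log of 1 plus counts per 10000 over cells, among genes with at least 200 UMIs per file.

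The members and gene lists were chosen with earlier results of these data known. Genes named beside the members were, per list, the 8 called genes with the largest log2 ratio, for each member the 5 most alike over groups of cells, and for Prkg1 the 5 most and least alike over cells; marker and context genes were listed, and Prkg2, Gucy1a2, Nos1, Pde6a, Pde7a and the genes given beside Pde7b and Rgs5 for the cell cycle were named after their values were seen where they fall outside these. The scripts were tested on simulated data. There were 0 per-sample columns left unused. Python 3.11.15, numpy 2.4.6, scipy 1.17.1, pandas 2.3.3 and matplotlib 3.10.9 were used.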

Additional observations from a re-analysis of the deposited data

Results flagged for a closer look

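Of 12 member ratios compared between cells with Myog under 150 CPM and cells with at least 1500 CPM, 2 had opposite signs in all 4 files. The difference itself was not tested in either case. The log2 ratio of Prkg1 with Pax7 detected over undetected was 1.20 at low Myog (0.61 to 1.85 over the files). At high Myog it was -0.29 (-0.39 to -0.18), on 147 or more UMIs per file in each group, a difference of 1.49. These high-Myog groups also differed in Mki67 (160 against 38.9 CPM) and Acta1 (2919 against 4931 CPM). From 1500 to 4000 CPM of Myog, cycling cells had Prkg1 at 48.1 CPM with Pax7 detected against 7.99 CPM in the rest. The other cells had it at 33.8 against 88.5 CPM. The part of these in the opposite signs was not tested. The log2 ratio of Gucy1a1 in cycling over non-cycling cells was -0.40 at low Myog (-0.66 to -0.21) and 0.73 at high Myog (0.20 to 1.21), a difference of -1.13. At high Myog that ratio rested on 4.5 and 2.5 UMIs of Gucy1a1 per file, and its counting interval is wide. Over the 4 files, none of the 26 member values examined had 1 file far from the other 3, where chance flags about 5% of such groups.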

How the results depend on the processing

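No paired analysis was possible because the series holds only 1 group. Of 140 comparison-level values recomputed under other settings, 123 were labelled the same, 17 moved and 0 reversed. Most of the 140 are counts of called genes, which carry no interval and were not judged against a spread. A count of 0 under both settings was the same by rule. Neither counts nor CVs can change sign, so the lack of reversals is informative only for the pairing of Gucy1a1 with Gucy1b1. Of 252 single-gene values, 214 stayed within their spread and 0 called values changed sign. The sign did change in 10 values that were not called, all of Gucy1a1, Pde5a or Prkg1 with Pax7 or the cell cycle. Prkg1 was no longer called higher with Myog (0 members) when cells above 4000 CPM of Myog were set against those at 0 or when Myog was split by detection at 5000 UMIs, with log2 ratios of 0.59 and 1.08. The members called higher with Pax7 went from 3 to 1 with median-ratio size factors and to 0 with a pseudocount of 5. Over all kept cells in place of low-Myog cells, the log2 ratio of Prkg1 with Pax7 went from 1.20 to -0.71 (-0.84 to -0.58), that of Gucy1a1 with the cell cycle from -0.40 to 1.02 (0.76 to 1.30), and 1 member, Gucy1b1, was called higher in cycling cells. With a bound of 1.5-fold, 4 cyclic AMP genes were higher with Myog, not 2. The pairing of Gucy1a1 with Gucy1b1 moved with depth: without thinning it was 29.6 points over all cells and 28.3 at low Myog, and thinned to 2500 UMIs it was 9.95 and 9.62 points. The CV of Prkg1 was 3.71 for the mean over files, 3.70 above 4000 CPM of Myog, 3.90 with looser cell filters, 3.58 without Malat1-poor cells, 3.71 without the deepest 5% of cells, and 3.56 to 3.70 with each file left out. Cells at 200 CPM of Prkg1, and the Pax7 comparison without Malat1-poor cells or by cell cycle, were added after seeing the data.

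The limits are those of 1 set of cells: no spread between animals or cultures can be given, and intervals cover counting error only. Gucy1a1, Gucy1b1 and Rgs5 averaged few UMIs per cell, so cells that hold none cannot be told from cells with a low level. Files that share molecules would look more alike than separate libraries, and this was not tested. Fewer expressing cells and less RNA per cell cannot be told apart for these genes in a sum over cells.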
